A study of Homo sapiens with 6 samples.

Results

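The genes described here are 10 enzymes that make or recover purine nucleotides: *PPAT*, *GART*, *PFAS*, *PAICS*, *ADSL* and *ATIC* of de novo synthesis, *IMPDH1* and *IMPDH2* of guanine nucleotide synthesis, and *HPRT1* and *APRT* of base salvage. They were chosen by gene symbol, with the difference between *SNHG15* siRNA and scramble libraries of these same data already known, so that their values in this contrast are given as a description. The call that the fit over all genes made for them is given once, beside the share of all genes called, and supports nothing. All 10 were found among the 63677 genes of the count table, and all 10 were among the 12507 genes that passed the filter on low counts.

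LoVo, an established human colorectal cancer cell line, had been transfected at 25 nM for 48 h either with a combination of both siRNAs against the long noncoding RNA *SNHG15* or with a negative control siRNA, here called scramble. The comparison asks which genes change when *SNHG15* is depleted. Each condition had 3 mRNA libraries, 3446922 to 10256710 counts deep, with scramble replicate 3 the shallowest. In these libraries both siRNAs were given together, so that an effect of 1 of them cannot be told apart from that of the other. The paper also used each siRNA alone, and by qRT-PCR reports *MYC* among the genes deregulated with each. Bulk libraries cannot tell fewer cells carrying an RNA apart from less RNA per cell. *SNHG15* itself was at 290, 277 and 261 CPM (counts relative to library size, scaled by edgeR's TMM factors) with the scramble and at 77.2, 83.1 and 87.2 CPM with the siRNAs, so that 29.9% remained. Replicate 1 stood apart among the siRNA libraries: its counts differed from those of replicates 2 and 3 by a chi-square of 13.2 and 18.5 per degree of freedom. siRNA replicates 2 and 3 gave 4.31, inside the range of the scramble pairs, 4.05 to 8.73. The pairs differ in depth, for which this measure was not adjusted. The labelled cell type was set against 10 markers of colon epithelium. *CDX2*, *KRT8*, *KRT18* and *CDH1* were present, at 3.05 to 68.3 CPM, but *EPCAM*, *CDH17*, *KRT20*, *VIL1*, *LGALS4* and *CEACAM5* had at most 4 counts in any library. Of 5 markers of leukocytes, fibroblasts and muscle, 4 had at most 4 counts and *COL1A1* at most 9. The summed level of the epithelial list was 102 to 110 CPM in the scramble and 106 to 117 CPM in the siRNA libraries, and that of the other list 0.352 to 0.605 and 1.01 to 1.53 CPM. The cell line is named from the labels, and these libraries do not settle its identity. The part of either list in the results below was not tested.

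Purine nucleotides reach a cell's pool by separate routes. In de novo synthesis the ring is built step by step on phosphoribosyl pyrophosphate (PRPP) up to IMP, from which AMP and GMP are made, and the genes of this route are well known targets of MYC. In salvage, a free base is joined to PRPP in a single step. *HPRT1* recovers hypoxanthine and guanine and *APRT* recovers adenine. *HPRT1* is also widely used as a reference transcript, and the study used HPRT RNA as a negative control when it precipitated RNA with AIF.

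The start-site windows of these genes are shown as a description of their letters, and a role of MYC in these libraries was not tested. RefSeq windows of 250 bases before to 50 after the start (GRCh38.p14) were available for 8 of the 10 genes, some with several starts, which gave 12 windows. *ADSL* and *IMPDH2* had no window and were not searched. The 12 windows were searched for the E-box CACGTG, which reads the same on both strands, and for the GC box GGGCGG on either strand. Both motifs can share a base at their ends, but did not in these windows. The first sequence is upstream of *HPRT1*, from chrX:134460015-134460164 on the plus strand, the second upstream of *ATIC*, from chr2:215311909-215312058 on the plus strand, and the third is the E-box that the windows of *PPAT* and *PAICS* share, chr4:56435780-56435809 on the minus strand. Capitals mark the GC boxes in the first sequence and the E-box in the others.

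HPRT1: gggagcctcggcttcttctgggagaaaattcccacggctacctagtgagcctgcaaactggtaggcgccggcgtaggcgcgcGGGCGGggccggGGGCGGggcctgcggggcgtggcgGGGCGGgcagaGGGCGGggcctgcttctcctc

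ATIC: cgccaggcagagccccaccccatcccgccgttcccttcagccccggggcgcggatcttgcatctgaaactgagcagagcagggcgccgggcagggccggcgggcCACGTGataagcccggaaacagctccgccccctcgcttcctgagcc

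PPAT and PAICS: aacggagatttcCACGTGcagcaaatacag

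The window of *HPRT1* held 4 GC boxes, beginning 68, 56, 32 and 21 bases before the start, and no CACGTG. Those of *ATIC* held an E-box 46 bases before the start and another beginning at base 30 of the transcript. *PPAT* and *PAICS*, which catalyse early and middle steps of the same route, are transcribed away from each other with 125 bp between their gene models on chromosome 4 (GRCh37), and the E-box lies 182 bases before the start of *PPAT* and at base 41 of *PAICS*. The E-box was thus found for 3 of the 8 genes, in 3 of 12 windows, against 7.26% of all 35116 windows. *PPAT* and *PAICS* are counted here by the same site. The de novo enzymes were listed as driven by MYC when the genes were chosen, so that nothing is read from this share. No CACGTG was found in the windows of *HPRT1*, *APRT*, *IMPDH1*, *PFAS* or *GART*. GC boxes were found for 8 of 8 genes, in 9 of 12 windows, against 45.0% of all windows. A match of letters is a description and does not show that a factor binds there.

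*HPRT1* (ENSG00000165704; chromosome X, 133594195 to 133654543 on GRCh37, plus strand, 9 exons) stood apart from the other enzymes. It was at 245, 202 and 220 CPM in scramble replicates 1 to 3 and at 90.7, 118 and 127 CPM in *SNHG15* siRNA replicates 1 to 3. The highest siRNA library stayed well under the lowest scramble library, so that the conditions did not overlap, and the siRNA mean was 50.3% of the scramble mean. The log2 difference, siRNA minus scramble in edgeR's fit, was -0.99 with a standard error (SE) of 0.15, from 223 ± 21.4 to 112 ± 18.9 CPM (SD, n = 3 each). These levels rested on 2091, 2034 and 729 counts with the scramble and 654, 820 and 1082 with the siRNAs, so that counting error is small beside the spread of the libraries. The lowest value was that of siRNA replicate 1, and without this library the log2 difference was -0.86. Leaving out each library in turn gave -1.09 to -0.86. *HPRT1* has 3 annotated processed pseudogenes in the count table, intronless copies that can draw reads of their parent, and none had more than 1 count in a library.

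*APRT* (ENSG00000198931; chromosome 16, 88875747 to 88878345, minus strand), the other base salvage enzyme, was at 246, 224 and 250 CPM with the scramble and 294, 254 and 242 CPM with the siRNAs. The conditions overlapped, and the siRNA mean, 263 ± 26.8 CPM, was above the scramble mean, 240 ± 13.8 CPM (SD, n = 3 each), by less than 1 SD of the siRNA libraries. The log2 difference was 0.14 (SE 0.12) with a 95% interval from -0.13 to 0.40. The ratio of both genes can be read inside each library, where scaling between libraries plays no part. *HPRT1* over *APRT*, in counts per kilobase of the canonical transcript, was 0.666, 0.602 and 0.588 with the scramble. With the siRNAs the same ratio was 0.206, 0.310 and 0.350. The salvage enzymes therefore parted in all 3 siRNA libraries, most in replicate 1. GC content can enter this ratio: the longest transcript has 40.4% GC in *HPRT1* and 63.2% in *APRT*. With an offset for GC content, the log2 differences were -1.01 for *HPRT1* and 0.06 for *APRT*. A part of GC content in the ratio was not tested.

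**Figure D1:**
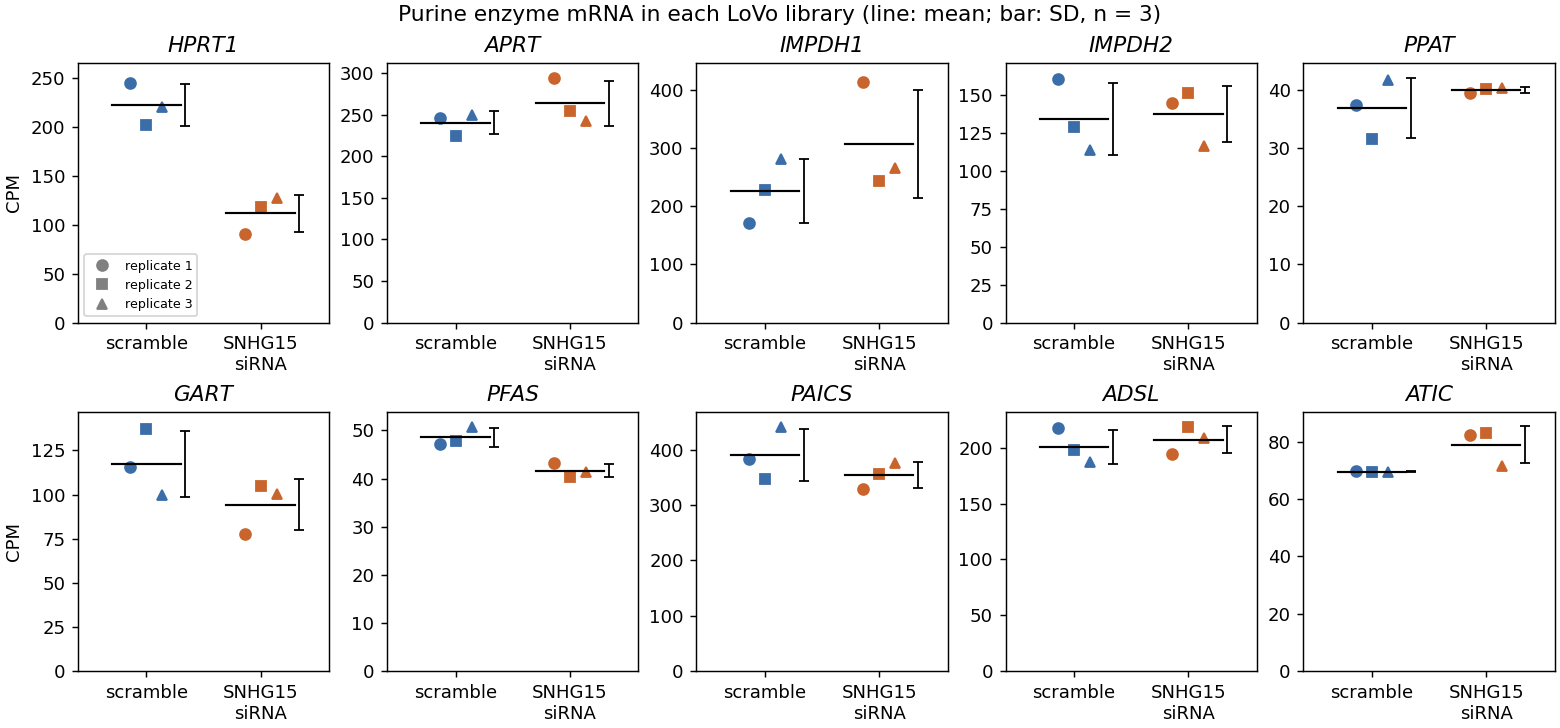
Level of each of the 10 purine enzymes in CPM (vertical axis, from 0) in the scramble and the *SNHG15* siRNA libraries. Each point is a library, its shape gives the replicate number, the line is the mean and the bar the SD of 3 libraries; only *HPRT1* shows a wide gap between conditions, from 202 CPM in the lowest scramble to 127 CPM in the highest siRNA library.

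The de novo enzymes differed little and in both directions. *PPAT* commits PRPP to purine synthesis. It was at 37.4, 31.5 and 41.7 CPM with the scramble and 39.5, 40.3 and 40.3 CPM with the siRNAs, the latter all inside the scramble range, with a log2 difference of 0.13 (SE 0.14). *PAICS*, its divergent neighbour, carries out middle steps with a single bifunctional protein. Its levels were 384, 348 and 441 CPM against 330, 355 and 376 CPM, which overlapped, and its log2 difference was -0.14 (SE 0.13). Inside each library, *PAICS* over *PPAT* in counts per kilobase was 5.93, 6.37 and 6.11 with the scramble and 4.82, 5.10 and 5.40 with the siRNAs. This ratio was thus lower in all 3 siRNA libraries although the levels of both genes overlapped. It was not tested, the other pairs of enzymes were not all compared, and 28.8% of single genes tested also had no overlap between conditions.

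*GART*, which carries several steps on 1 protein and takes formyl groups from folate, was at 116, 137 and 99.5 CPM with the scramble and 77.6, 105 and 101 CPM with the siRNAs. Only siRNA replicate 1 lay below all scramble libraries. The log2 difference of -0.32 (SE 0.15) was -0.21 without that library and -0.19 without scramble replicate 2. *PFAS*, the amidotransferase that follows *GART*'s first steps, was tighter, at 47.2, 47.7 and 50.8 CPM against 43.3, 40.4 and 41.3 CPM, and the siRNA libraries all lay lower (log2 difference -0.22, SE 0.13).

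*ADSL* acts both in the de novo route and between IMP and AMP. It was at 217, 198 and 187 CPM with the scramble and 194, 219 and 208 CPM with the siRNAs, and the conditions overlapped nearly fully (log2 difference 0.04, SE 0.12). *ATIC* closes the ring to IMP. Its scramble libraries were almost identical, at 69.7, 69.4 and 69.6 CPM, and its siRNA libraries were all higher, at 82.2, 83.1 and 71.5 CPM, although replicate 3 was above the scramble by only a small margin (log2 difference 0.18, SE 0.12). Of the 6 de novo enzymes, 3 had lower and 3 higher point estimates, with a median of -0.05 on the log2 scale.

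*IMPDH1* and *IMPDH2* encode isozymes of the step from IMP to XMP, the entry to guanine nucleotides. *IMPDH1* was the most variable of the 10 genes, with a coefficient of variation of 24.4% with the scramble and 30.1% with the siRNAs. It was at 171, 229 and 281 CPM with the scramble and 413, 243 and 266 CPM with the siRNAs, so that only siRNA replicate 1 lay outside the scramble range. Its log2 difference of 0.44 (SE 0.21) fell to 0.17 without siRNA replicate 1 and was 0.27 without scramble replicate 1. *IMPDH2* was at 161, 129 and 114 CPM against 145, 151 and 117 CPM, inside the scramble range in every siRNA library (log2 difference 0.03, SE 0.15). The ratio of *IMPDH1* to *IMPDH2*, in counts per kilobase, ranged from 0.672 to 1.56 with the scramble and from 1.02 to 1.80 with the siRNAs, a wide overlap. By GENCODE, *IMPDH2* and *ADSL* share 1680 and 1344 bp of exon with other protein-coding genes on the same strand. The count table does not hold these other genes, so that it assigns no reads to them. The annotation used for counting is not given, and how reads in those exons were treated was not checked.

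**Figure D2:**
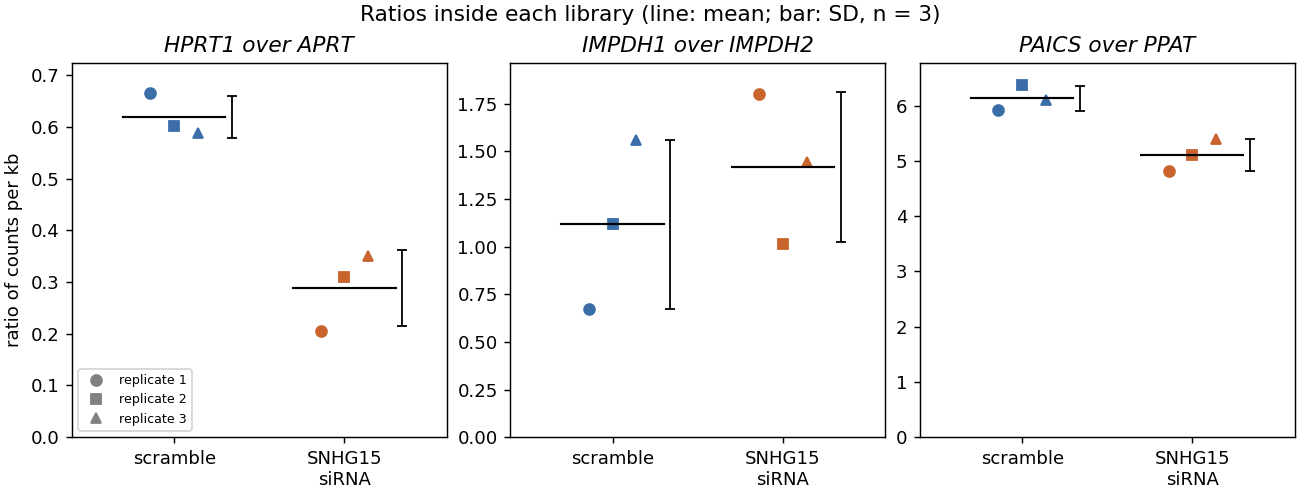
Ratios of counts per kilobase inside each library (vertical axis, from 0) for *HPRT1* over *APRT*, *IMPDH1* over *IMPDH2* and *PAICS* over *PPAT*, by condition; the line is the mean and the bar the SD of 3 libraries. The first ratio had a mean of 0.619 with the scramble and 0.288 with the siRNAs, the second overlapped between conditions, and the third had means of 6.14 and 5.11.

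With edgeR's quasi-likelihood F-test, adjusted by Benjamini and Hochberg's method over all genes, 1 of the 10 enzymes, *HPRT1*, was under an adjusted p of 0.05, as were 5.36% of the 12507 genes tested. This contrast was in view when the genes were chosen, and nothing is read from the count. The conditions did not overlap in 3 of the 10 enzymes, *HPRT1*, *PFAS* and *ATIC*, and in 28.8% of all genes tested. The median log2 difference was 0.04 over the 10 enzymes and 0.0005 over all genes tested. The other 9 had log2 differences between -0.32 and 0.44, with standard errors of 0.12 to 0.21. Their 95% intervals together ran from -0.65 to 0.89, so that equal levels in both conditions are not shown. *MYC* itself was at 708, 757 and 591 CPM with the scramble and 291, 512 and 503 CPM with the siRNAs, lower in all 3 siRNA libraries (log2 difference -0.66, SE 0.19), with an adjusted p of 0.0613 from edgeR, above 0.05. This call turned on the processing: the adjusted p was 0.0133 with DESeq2, 4.53e-05 without the filter on low counts, 0.0462 without siRNA replicate 1 (log2 difference -0.44), 0.0482 without siRNA replicate 3 and up to 0.228 without scramble replicate 2. Among the genes with an E-box in their start-site window, *ATIC* (0.18, SE 0.12) and *PPAT* (0.13, SE 0.14) had positive and *PAICS* (-0.14, SE 0.13) a negative point estimate. Their 95% intervals all included 0, and whether MYC acts on these genes here was not tested.

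**Figure D3:**
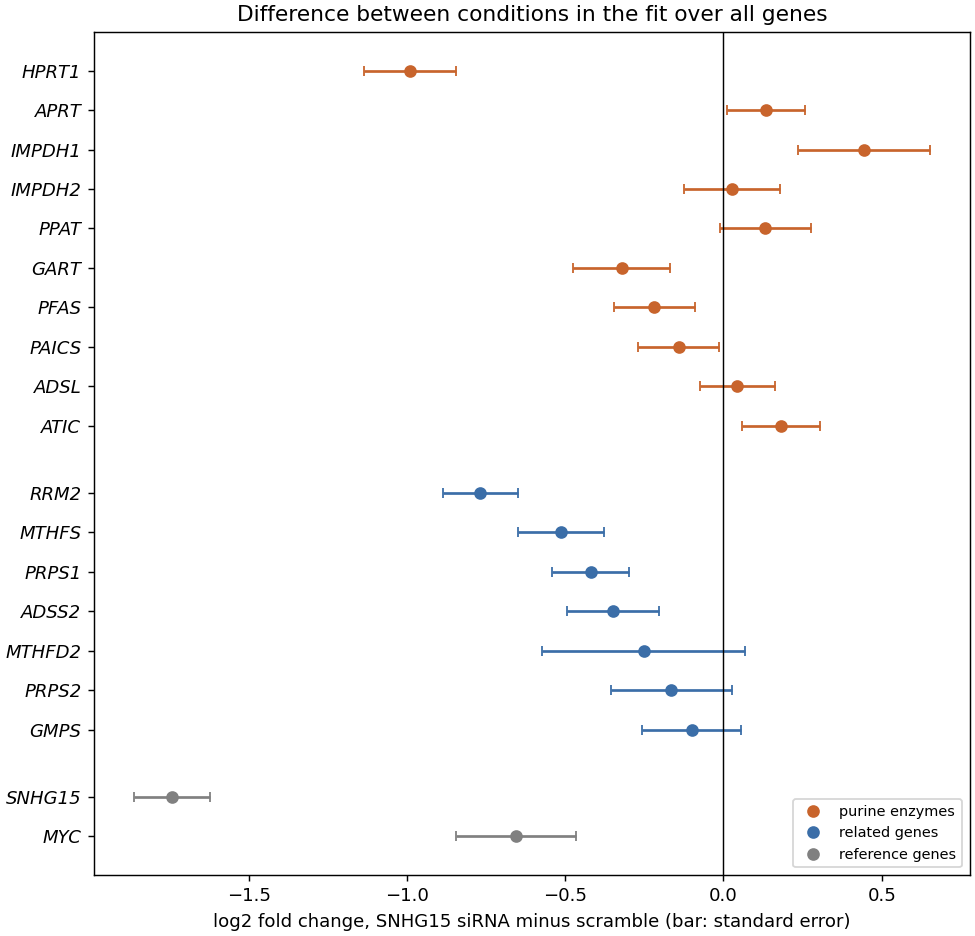
Log2 difference between *SNHG15* siRNA and scramble libraries (horizontal axis; point with its standard error, 3 libraries per condition) for the 10 purine enzymes, 7 related genes and *SNHG15* and *MYC*. Among the 10 enzymes, *HPRT1* is at -0.99 and the others lie between -0.32 and 0.44.

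The enzymes were ordered within each condition by level per length, in CPM per kilobase of the canonical transcript. The choice of genes had not used the order inside a condition, but a change of place between conditions follows the same contrast as above. In the scramble libraries *APRT* came first, at 258 ± 14.9, and *HPRT1* second, at 160 ± 15.4 CPM per kilobase (SD, n = 3 each), so that the salvage enzymes had the most mRNA per length of the 10. *IMPDH1* (86.8 ± 21.2) and *IMPDH2* (81.5 ± 14.4) followed and overlapped each other, and *IMPDH2* also overlapped *PAICS* (61.3 ± 7.38). *ADSL* (46.0 ± 3.52) came next, then *GART* and *ATIC*, at 35.4 ± 5.67 and 35.3 ± 0.0762, which overlapped. *PPAT* (10.0 ± 1.39) and *PFAS* (9.05 ± 0.360) were the lowest and overlapped as well, so that the committing step had 1 of the 2 lowest levels. In the siRNA libraries *HPRT1* stood at place 4, with 80.2 ± 13.6 CPM per kilobase (SD, n = 3), behind *APRT* and both *IMPDH* genes, and overlapped *IMPDH2*. This restates its difference between conditions and adds no support to it. *ATIC* and *GART* changed places and no longer overlapped. The order depends on the length used: with the coding length alone, *PAICS*, whose canonical transcript of 6371 bases holds 1296 coding bases, moved to place 3 with the scramble and place 2 with the siRNAs, while *APRT* stayed first and *HPRT1* went from place 2 to place 3. With the union of all annotated exons, *HPRT1* came before *APRT* in the scramble libraries.

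**Figure D4:**
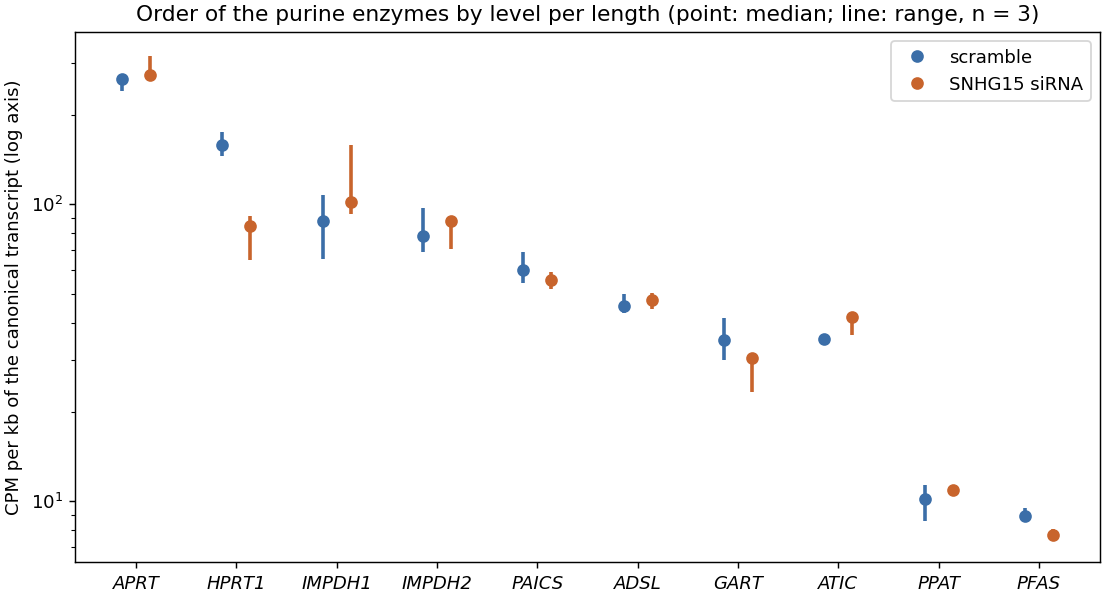
Level of the 10 purine enzymes in CPM per kilobase of the canonical transcript (vertical log axis), ordered by their scramble mean; the point is the median and the line the range of 3 libraries per condition. *APRT* is highest in both conditions, *PPAT* and *PFAS* lowest, and *HPRT1* moves from place 2 to place 4, which restates its difference between conditions.

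Genes that act around these enzymes were taken from 6 lists with 56 genes, of which 46 passed the filter on low counts. In edgeR's test over all genes, 2 of the 46 were lower with the siRNAs at an adjusted p under 0.05, where 2.23% of all genes tested were, and 0 were higher, where 3.13% were. At an unadjusted p under 0.05, 12 were lower and 2 higher, where 1319 (10.5%) of the 12507 genes tested were lower and 1501 higher, which makes 22.5% for both directions. DESeq2 called 6 lower and 0 higher, where it called 2.90% of its 13118 genes in each direction. The median log2 difference of the 46 genes was -0.04.

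The genes that edgeR called lower were *RRM2* and *MTHFS*. DESeq2 called these and also *GGH*, *MTHFD1*, *NT5C* and *PRPS1*. *RRM2*, the small subunit of ribonucleotide reductase, which turns ribonucleotides into the deoxyribonucleotides of DNA, was at 384, 341 and 395 CPM with the scramble and 209, 222 and 227 CPM with the siRNAs. The conditions were far apart, and its log2 difference was -0.77 (SE 0.12, edgeR's adjusted p = 0.00507), past the threshold under every alternative run. *MTHFS*, which returns a storage form of folate to the active pool, was at 52.6, 64.9 and 59.6 CPM against 39.4, 41.0 and 43.7 CPM (log2 difference -0.51, SE 0.14, edgeR's adjusted p = 0.0464). That call was lost in 5 of the 6 fits without 1 library, all except the fit without siRNA replicate 1, and its adjusted p reached 0.198 without scramble replicate 2. It was also lost with upper-quartile factors (adjusted p = 0.0583), with at least 10 counts required in every library (0.0573), with the replicate number as a block (0.0716) and with that block and a GC offset (0.0573), all from edgeR. *RRM2* was the 1 gene called of 11 tested in the list of nucleotide kinases and ribonucleotide reductase, and *MTHFS* the 1 of 12 in the list of folate supply. At an unadjusted p under 0.05 from edgeR, 6 of these 12 folate genes passed, 5 lower and 1 higher, against 22.5% of all genes tested. In 5 of the 12 the conditions did not overlap, all of them lower with the siRNAs, against 28.8% of all genes tested.

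PRPP, the substrate of *HPRT1*, *APRT* and *PPAT*, is made by the synthetases *PRPS1* and *PRPS2*. *PRPS1* was at 166, 166 and 165 CPM with the scramble and 114, 139 and 119 CPM with the siRNAs. All siRNA libraries were lower, but its adjusted p from edgeR was 0.0616 (log2 difference -0.42, SE 0.12), and over the alternatives it ran from 0.0320 with DESeq2 to 0.182 without scramble replicate 2, and was under 0.05 also with no filter on low counts (0.0365). *PRPS2* was at 104, 68.2 and 109 CPM against 64.2, 85.0 and 99.5 CPM, which overlapped (log2 difference -0.16, SE 0.19, edgeR's adjusted p = 0.654). With *PRPSAP1* and *PRPSAP2*, proteins that associate with the synthetases, 4 of the 4 genes of this list had negative point estimates, as had 6247 of the 12507 genes tested, and their median was -0.33. Of the 4, edgeR called 0, and 2 had an unadjusted p under 0.05, against 22.5% of all genes.

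Beyond IMP, edgeR called 0 of 7 tested genes between IMP and AMP or GMP, and 1 had an unadjusted p under 0.05, a share below the 22.5% of all genes. *ADSS2*, which takes IMP toward AMP, was at 47.4 ± 4.14 CPM against 37.1 ± 4.62 CPM (SD, n = 3 each), with no overlap (log2 difference -0.35, SE 0.15, edgeR's adjusted p = 0.179). *GMPS*, which follows *IMPDH1* and *IMPDH2* to GMP, was at 37.7, 39.4 and 40.2 CPM against 30.8, 34.1 and 44.2 CPM, and overlapped (log2 difference -0.10, SE 0.16, edgeR's adjusted p = 0.745). *MTHFD2*, a mitochondrial folate enzyme, showed how much 1 library can carry: it was at 235, 280 and 155 CPM with the scramble and 80.7, 237 and 247 CPM with the siRNAs, and its log2 difference turned from -0.25 (SE 0.32, edgeR's adjusted p = 0.686) to 0.10 without siRNA replicate 1. In nucleoside salvage and breakdown, 0 of 9 genes passed and 3 had an unadjusted p under 0.05, and among nucleoside transporters both numbers were 0, of 3 genes, again beside 22.5% of all genes. *XDH*, *GDA*, *AMPD1*, the concentrative transporters *SLC28A1*, *SLC28A2* and *SLC28A3*, *ALDH1L1*, *ALDH1L2* and *NT5C2* had at most 3 counts in any library.

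The genes whose levels followed *HPRT1* most closely over the 6 libraries, by Pearson's r of log2 CPM among 8533 other genes with a mean of at least 10 CPM, were *SEMA3D* (0.997), *HNRNPA3* (0.996), *TIMM21* (0.996), *APH1A* (0.996) and *CDCA7* (0.992). All 5 were lower in every siRNA library. They were picked for following *HPRT1*, which was itself lower there, so this follows from the choice and adds no support. From edgeR, the adjusted p was 0.154 for *HNRNPA3* and 0.331 for *APH1A*, and at most 0.0164 for *SEMA3D*, *TIMM21* and *CDCA7*. The 6 points lie in separate conditions, and the libraries share their depth and scaling, so that r is given as a description. The siRNA levels of *SEMA3D* were 19.7, 25.0 and 28.0 CPM, against 54.1, 46.7 and 46.3 CPM with the scramble. The lowest library of *HPRT1*, siRNA replicate 1, was also the lowest of all 5 genes, which the choice by r favours as well. Over the 10 enzymes, siRNA replicate 1 held the lowest siRNA value in 5 and the highest in 3, *APRT*, *IMPDH1* and *PFAS*. Those 3 had the highest GC content of the 10 in their longest transcript, 58.2% to 63.2%. The 5, *PPAT*, *HPRT1*, *PAICS*, *GART* and *ADSL*, had the lowest, 33.8% to 47.3%. A part of GC content in the values of siRNA replicate 1 was not tested.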

How the data were processed

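RNA-seq counts of 6 LoVo libraries were analysed, 3 per condition, with conditions and replicate numbers from the sample labels. The table the authors deposited holds raw read counts for each Ensembl gene. The paper's methods name bowtie2 on hg19, while the submitters' processing notes name STAR and featureCounts. Versions, annotation, strand setting and the treatment of multiply placed reads are not given in the sources used here. The RNA was isolated with a Maxwell kit per the methods and with TRIzol per the labels, from 3 biological replicates, and libraries were made with a stranded mRNA kit.

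Counts were tested with edgeR 4.0.16 in R 4.3.3 (filterByExpr with a minimum of 10 and a total of 15, TMM, quasi-likelihood test) without a block, and p-values were adjusted over 12507 genes at a threshold of 0.05. CPM were scaled by TMM factors. Each standard error is the log2 difference over the square root of F, and gives the 95% interval. Positions and lengths came from GENCODE release 44 on GRCh37, and start-site windows from RefSeq. By GENCODE, *IMPDH2* shares 132 bp and *PPAT* 121 bp of exon with an antisense RNA that had at most 3 counts. The members, lists and tests were chosen with earlier results of these data known. Named were the 10 members, related genes past the threshold, *PRPS1*, *PRPS2*, *GMPS*, *ADSS2*, *MTHFD2*, *MYC*, *SNHG15* and the 5 genes most like *HPRT1*. *PECAM1*, listed among the markers of other cells, was not analysed here. Alternatives were DESeq2 1.42.0, RLE and upper-quartile factors, other filters, an offset for GC content (loess, span 0.3), the replicate number as a block, and leaving out each library. The fits were checked on simulated counts. Levels per length used the canonical transcript, then the coding length and, chosen after seeing the data, all exons.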

Additional observations from a re-analysis of the deposited data

How the results depend on the processing

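The count of purine enzymes past the threshold was 1 (*HPRT1*) under all alternatives except no filter on low counts, where it was 2 (with *IMPDH1*), and nothing is read from it. The number of all genes past the threshold was 671. It was 1312 of 23675 without the filter, 761 of 13118 with DESeq2, 886 of 12264 with the GC offset, 745 with upper-quartile factors, 499 of 10815 with at least 10 counts in every library, and between 139 (without scramble replicate 2) and 812 (without siRNA replicate 1) when 1 library was left out, with 199 without scramble replicate 1, 266 without scramble replicate 3 and 356 without siRNA replicate 2. Of the called genes 58.4% were higher (392 against 279). That share was 69.1% with upper-quartile factors (515 against 230), 50.1% with DESeq2 (381 against 380), 52.2% without the filter, and 52.3% to 67.7% without 1 library, so the excess of higher calls depends on the processing. Of the related genes 2 passed, 6 with DESeq2 or without the filter, 4 with the GC offset, 1 with upper-quartile factors, with at least 10 counts in every library or with the replicate block, and 1 to 4 without 1 library; the causes were not tested. Deviations of same-numbered libraries from the mean of their condition had correlations of -0.07, 0.16 and -0.04. Those of differently numbered libraries ran from -0.17 to 0.14. Such values do not show that the numbers pair the libraries, and cannot exclude it. With the replicate block 543 genes passed in all, and 665 with the block and the GC offset. Of 266 fold changes of named genes under an alternative, 7 changed sign: *ADSL* was -0.0059 without scramble replicate 3, *GMPS* 0.0067 and *MTHFD2* 0.10 without siRNA replicate 1, and *IMPDH2* -0.00088 and -0.078 without scramble replicates 2 and 3 and -0.019 and -0.043 without siRNA replicates 1 and 2. In the order by level per length, 4 of the 10 enzymes kept their place with the coding length and 1 with all exons in the scramble libraries, 5 and 5 in the siRNA libraries, and 8 to 10 without 1 library. Without 1 library in turn, the log2 difference of *IMPDH2* ran from -0.078 to 0.17, *GMPS* from -0.26 to 0.0067 and *MTHFD2* from -0.50 to 0.10.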
